A study of Homo sapiens with 16 samples.

Results

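Mitochondrial ribosomal protein genes are the nuclear genes, named MRPL and MRPS with a number, that encode the protein subunits of the ribosome inside mitochondria. They were taken here as every row of the expression tables whose symbol is MRPL or MRPS, a number and at most the letter A, B or C, so that pseudogenes were left out. The rule gave 78 rows and 76 genes (47 MRPL, 29 MRPS) of 17318 genes in the first table and the same 76 of 18168 in the second. MRPL30 and MRPS17 had a second row at a far lower level (-2.35 and 0.00 log2 CPM in the first table), which was not used. CPM is a count scaled to a common library size. Both tables hold log2 CPM, so a difference of 1 is a doubling.

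The 16 libraries are tumours of U87, a human glioblastoma cell line carrying luciferase and labelled wild type, grown in the brains of nude mice, a strain that lacks most T cells. The tumours were taken when a mouse met the conditions for euthanasia. Myc1 (n = 3) and Scr1 (n = 4) are mice given exosomes (from a source the labels name as MSC) that carried a siRNA against human MYC, number 1, or scramble siRNA 1. Treatment of this pair began 28 days after implantation, every other day, with 1e9 exosomes in 100 µl injected behind the eye. Myc2 (n = 5) and Scr2 (n = 4) are the same comparison with MYC siRNA 2 and scramble siRNA 2, whose schedule is not given in the sources used here. Each library is a separate mouse by its label. The RNA is that of whole tumours, so a lower share of cells of a type and less RNA per cell cannot be told apart.

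The mitochondrial ribosome translates the mRNAs of the mitochondrial genome, which encode subunits of the respiratory chain and the ATP synthase. Its RNAs come from the mitochondrial genome, whereas its proteins are encoded in the nucleus, made in the cytosol and imported. The small subunit binds the mRNA and reads its codons, and the large subunit joins the amino acids. Some of the proteins have a counterpart in the bacterial ribosome and others were acquired later. MYC, a transcription factor, is known to raise ribosome production and the expression of many nuclear genes for mitochondria.

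Of the 76 genes, 49 encode large-subunit proteins (30 with a bacterial counterpart at the same place and 19 without) and 26 encode small-subunit proteins (16 with and 10 without). MRPS18A and MRPS30 belong to the large subunit in spite of their names. MRPS36 is a subunit of the 2-oxoglutarate dehydrogenase complex and not of the ribosome. All 76 passed the filter on low values in both experiments.

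MYC, the targeted transcript, is the check of the labels. Its level was 4.61 ± 0.71 log2 CPM in Myc1 (SD, range 3.84 to 5.25) and 5.44 ± 1.02 in Scr1 (4.41 to 6.76), a difference of -0.83 (SE 0.54, limma adjusted p = 0.996). In the second experiment it was 5.75 ± 0.29 in Myc2 (5.40 to 6.17) and 5.18 ± 0.37 in Scr2 (4.70 to 5.56), a difference of 0.57 (SE 0.21, limma adjusted p = 0.370). The mean therefore lay lower in the libraries labelled Myc1 and higher in the libraries labelled Myc2, the opposite of the label in the second case, and neither difference passed the test. Where a direction is given below for the second experiment, it is that of the libraries labelled Myc2.

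Some libraries stood apart. Library sizes estimated from the spacing of the lowest values were 15.15 to 23.82 M reads in the first experiment except Scr1 replicate 3 (3.35 M), and 15.18 to 29.54 M reads in the second except Scr2 replicate 4 (10.46 M). On the first principal component of the second table (43.8% of the variance), Scr2 replicates 1 and 4 lay at 63.4 and 94.4, with the remaining 7 from -47.6 to -2.74. In the first table (31.3%), Scr1 replicate 4 lay at 61.5. Counts and medians of the mitochondrial ribosomal protein genes as a whole are given with and without these libraries, as are differences of some named genes. Those of the subunit and length classes and of the lists of other genes are given with all libraries only.

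Some of the genes hold the same short motifs around their starts. RefSeq promoters (GRCh38.p14, 250 bases before to 50 after a start) were at hand for 67 of the 76 genes, 83 promoters in all, and were searched on both strands for 4 motifs known from promoters of mitochondrial genes or from MYC binding. The ETS-family motif CCGGAAG was found in 32 of the 83 promoters (38.55%), against 10.26% of all 35116 promoters and 16.23% of 14149 promoters of genes tested here. The YY1 motif AAGATGGC was found in 23 (27.71%), against 2.89% of all and 4.68% of those of tested genes. The NRF1 motif GCGCATGCG was found in 3 (3.61%, against 1.92% and 3.10%). The E-box CACGTG, a sequence that MYC can bind, was found in 9 (10.84%, against 7.26% and 9.26%). Promoters of a gene with several starts overlap, so the counts are not of independent sequences, and a match is a description of the letters.

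The 100 bases before the start are printed for some of the genes named below, 5′ to 3′ in the direction of the gene. The ETS and YY1 matches are in capitals, and no match overlaps another. MRPL47 and MRPS18A had the smallest p in the second experiment, MRPS10 was lower there without overlap, MRPL40 and MRPS16 had the smallest p in the first, and MRPS30 and MRPS25 lay near 0 in the second. They are MRPL47 (chr3:179604639-179604738, minus strand), MRPS18A (chr6:43687792-43687891, minus), MRPS10 (chr6:42217862-42217961, minus), MRPL40 (chr22:19432445-19432544, plus), MRPS16 (chr10:73252645-73252744, minus), MRPS30 (chr5:44808847-44808946, plus) and MRPS25 (chr3:15065316-15065415, minus).
MRPL47: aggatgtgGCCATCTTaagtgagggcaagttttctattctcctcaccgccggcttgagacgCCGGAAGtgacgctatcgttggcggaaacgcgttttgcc
MRPS18A: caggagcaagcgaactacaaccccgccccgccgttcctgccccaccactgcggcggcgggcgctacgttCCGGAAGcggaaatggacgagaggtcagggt
MRPS10: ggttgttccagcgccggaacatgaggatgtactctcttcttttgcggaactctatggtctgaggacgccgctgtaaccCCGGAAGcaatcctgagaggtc
MRPL40: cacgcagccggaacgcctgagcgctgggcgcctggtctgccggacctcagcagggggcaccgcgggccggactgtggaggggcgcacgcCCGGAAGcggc
MRPS16: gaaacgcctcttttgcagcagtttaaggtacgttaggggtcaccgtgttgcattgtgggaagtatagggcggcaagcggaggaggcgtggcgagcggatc
MRPS30: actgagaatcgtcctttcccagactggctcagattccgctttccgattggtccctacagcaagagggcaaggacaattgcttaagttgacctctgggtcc
MRPS25: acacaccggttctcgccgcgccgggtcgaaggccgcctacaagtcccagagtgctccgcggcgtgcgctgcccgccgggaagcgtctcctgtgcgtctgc
In MRPL47 the ETS match begins 39 bases before the start and the YY1 match, on the other strand, 92 bases before it. The ETS match begins 31 bases before the start in MRPS18A, 22 in MRPS10 and 11 in MRPL40. The other 3 printed stretches hold neither motif. MRPS10, MRPS18A and MRPS30 each have a YY1 match and MRPS16 an ETS match just after the start, outside the stretch printed.

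Levels were compared between genes per kilobase of transcript (median length of the coding transcripts in GENCODE 29, found for 74 of the 76). The highest on the log2 scale of mean CPM per kilobase was MRPL51, a large-subunit protein without a bacterial counterpart, at 8.68 in the first experiment and 8.54 in the second. MRPS6, a small-subunit protein, followed at 7.86 and 7.61. The lowest were MRPL30 (2.56 and 2.34), MRPL1 (3.30 and 3.32) and MRPS17 (3.45 and 3.32). Summed over the 76 genes, the mRNAs took 4915 to 7179 CPM of a library in the first experiment and 4064 to 9074 CPM in the second.

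The genes lay slightly higher in the Myc1 tumours than in the Scr1 tumours, within the spread between mice. Averaged over the 76 genes, Myc1 replicates 1 to 3 had 6.07, 6.04 and 6.29 log2 CPM, and Scr1 replicates 1 to 4 had 5.97, 5.88, 6.22 and 5.62. Scr1 replicate 4 was the lowest library and Scr1 replicate 3 lay above 2 of the 3 Myc1 libraries, so the groups overlap. The difference was above 0 for 66 of the 76 genes, against 49.5% of all 13933 genes tested, with a median of 0.19, against -0.00 over all genes. limma called 0 of 76 at an adjusted p under 0.05, and 0.0% of all genes. At an unadjusted p under 0.05, 2 of the 76 were higher in Myc1 (MRPS16 and MRPL40) and 0 lower, while 1.96% of all genes were higher (273, with 212 lower). The 2 genes of 76 are a share near that of all genes.

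**Figure D1:**
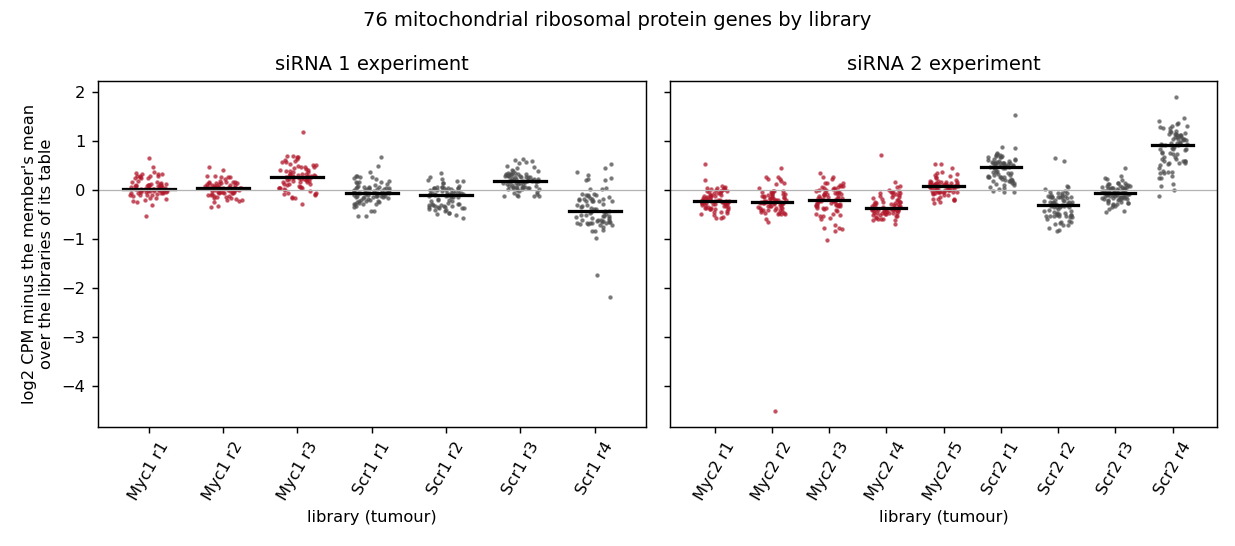
Each point is 1 of the 76 mitochondrial ribosomal protein genes in 1 library, as log2 CPM minus that gene's mean over the libraries of its table (vertical axis), with Myc libraries in red, Scr libraries in grey and a bar at the median of the genes. Scr1 replicate 4 lies lowest in the first experiment, and Scr2 replicates 1 and 4 lie above the other 7 libraries in the second.

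The low level of Scr1 replicate 4 ran through most of the genes. It was the lowest of the 7 libraries for 49 of the 76, whereas it was lowest for 21.69% of all genes tested. Without it, 61 genes lay above 0 and the median difference was 0.10. Without Myc1 replicate 3, the library highest for 31 of the 76, 56 lay above 0 and the median was 0.13. Without Scr1 replicate 3, the shallow library, 71 lay above 0 and the median was 0.27, with 9 genes at an unadjusted p under 0.05, while that count was 0 without Scr1 replicate 4 and without Myc1 replicate 3. Over all 13794 genes tested without Scr1 replicate 3, 472 were higher at that p and 483 lower. Without Scr1 replicate 4, 186 of all 13752 genes were higher at that p, and without Myc1 replicate 3, 100 of 14228. The 81 cytoplasmic ribosomal protein genes moved with these libraries: their mean was 8.33 log2 CPM in Scr1 replicate 4 and 8.88 to 9.24 in the other 6. The part of a general shift of Scr1 replicate 4 in the result was not tested.

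MRPS16, a small-subunit protein with a bacterial counterpart, had the most even values in the treated group. Its values were 7.33, 7.32 and 7.33 log2 CPM in Myc1 replicates 1 to 3 (7.33 ± 0.0047, SD, n = 3) and 6.62, 7.10, 7.02 and 6.57 in Scr1 replicates 1 to 4 (6.83 ± 0.27, n = 4). All 3 Myc1 libraries lay above all 4 Scr1 libraries. The difference was 0.50 (SE 0.21, 1.41-fold, limma adjusted p = 0.996).

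MRPL40, a large-subunit protein without a bacterial counterpart, was 5.88, 6.01 and 6.48 in Myc1 and 5.57, 5.43, 5.97 and 5.11 in Scr1. Scr1 replicate 3 lay above Myc1 replicate 1, so the groups overlap. The difference was 0.60 (SE 0.25, limma adjusted p = 0.996). The small-subunit gene MRPS33 (0.64, SE 0.30) and the large-subunit gene MRPL54 (0.56, SE 0.28) had differences of like size, and neither passed the test.

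The groups did not overlap, with Myc1 higher, for MRPS16, MRPS18C, MRPL21 and MRPS11, 4 of the 76, against 1.94% of all genes. MRPS18C, the small-subunit protein at the place of bacterial S18, was 5.11, 4.82 and 5.14 in Myc1 and 4.78, 4.69, 4.65 and 4.24 in Scr1, a difference of 0.43 (SE 0.24). MRPL21, a large-subunit protein with a bacterial counterpart, differed by 0.47 (SE 0.23). MRPS11, with a bacterial counterpart, had the smaller difference of 0.18 (SE 0.19), its Myc1 values running from 6.44 to 6.50 and its Scr1 values from 6.19 to 6.38. Without a gap between groups, the widest spread was in the weakly expressed MRPL30 (difference 0.69, SE 0.63) and MRPL1 (0.73, SE 0.45), whose lowest values, 1.05 and 2.14, were those of Scr1 replicate 4.

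The 10 genes with a difference below 0 had small ones. The lowest was that of MRPL49 (-0.19, SE 0.21), followed by MRPL4 (-0.17, SE 0.23), MRPL44 (-0.17, SE 0.22) and MRPL10 (-0.15, SE 0.25). MRPL10 is part of the base of the stalk that recruits translation factors. In this gene Scr1 replicate 4 was the highest library at 6.45, in contrast to most of the others.

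In the second experiment the genes lay lower in the libraries labelled Myc2, and the difference rested on a pair of scramble tumours. Averaged over the 76 genes, Myc2 replicates 1 to 5 had 5.61, 5.55, 5.60, 5.50 and 5.89 log2 CPM, and Scr2 replicates 1 to 4 had 6.25, 5.50, 5.75 and 6.66. Scr2 replicates 1 and 4 lay above all Myc2 libraries, while Scr2 replicate 3 lay among them and Scr2 replicate 2 was the lowest of the 9 (5.497, next to 5.504 in Myc2 replicate 4). The difference was above 0 for 4 of the 76 genes, against 48.2% of all 14208 genes tested, with a median of -0.43, against -0.02 over all genes. limma called 0 of 76 at an adjusted p under 0.05, and 0.0% of all genes. At an unadjusted p under 0.05, 11 of the 76 were lower in Myc2 and 0 higher, while 6.36% of all genes were lower (903, with 995 higher).

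The size of the difference rested on Scr2 replicates 1 and 4. Scr2 replicate 4 was the highest of the 9 libraries for 69 of the 76 genes, whereas it was highest for 27.08% of all genes tested. Scr2 replicates 1 and 4 both lay above the other 7 for 58 of the 76, against 21.37% of all genes. Without this pair, 41 of the 76 lay above 0, the median difference was 0.01 and 0 of the 76 had an unadjusted p under 0.05. Over all 14639 genes tested without the pair, 215 were lower at that p and 294 higher. The pair stood apart on the first principal component but also had the highest means of the 76 genes. Leaving it out therefore moves the difference up by the choice itself, and no other pair was left out. Without Scr2 replicate 4 alone, 11 lay above 0 and the median was -0.19, and without Scr2 replicate 1 alone the median was -0.35. Each of these left 1 of the 76 lower at an unadjusted p under 0.05. Over all genes, 284 of 14389 were lower at that p without Scr2 replicate 4 and 354 of 14386 without Scr2 replicate 1, a like share. In the other direction, leaving out Scr2 replicate 2, which was lowest for 21 of the 76, gave a median of -0.62 and 46 such genes, and leaving out Scr2 replicate 3 gave 24. Such counts rose over all genes too. Without Scr2 replicate 2, 2023 of 14422 genes were lower at that p and 1905 higher. Without Scr2 replicate 3, 1322 of 14416 were lower and 1465 higher.

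**Figure D2:**
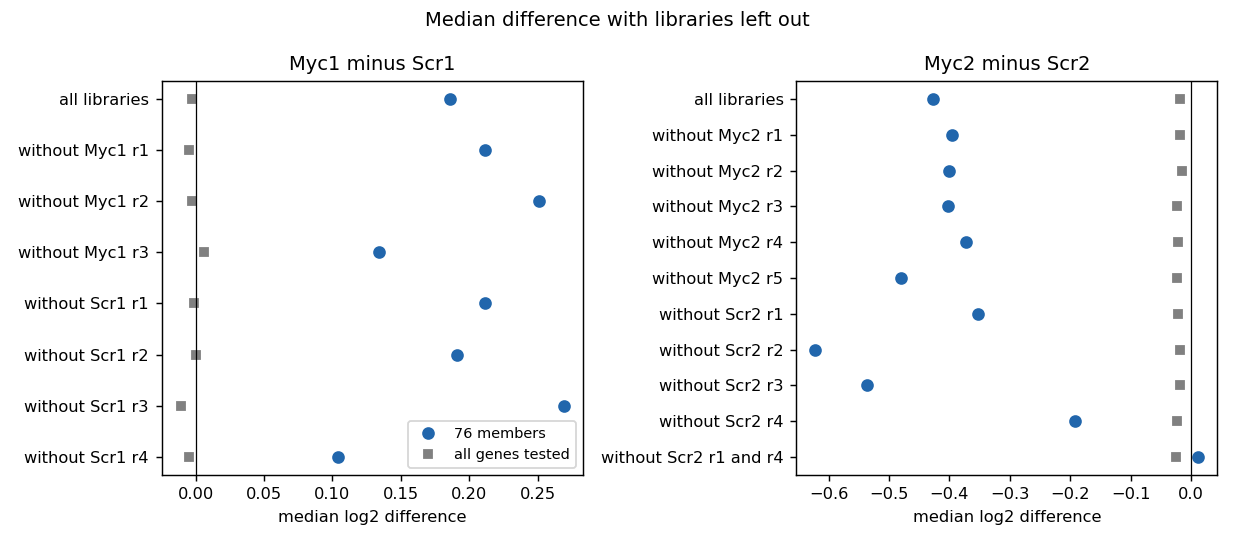
Median log2 difference (horizontal axis) over the 76 mitochondrial ribosomal protein genes (circles) and over all genes tested (squares), with all libraries and with the named library or pair of libraries left out (vertical axis). The median of the 76 goes from -0.43 to 0.01 when Scr2 replicates 1 and 4 are left out, and the median of all genes stays near 0.

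Other measures moved with the same libraries. The mean of the cytoplasmic ribosomal protein genes was 9.26 and 9.61 log2 CPM in Scr2 replicates 1 and 4 and 8.24 to 8.79 in the other 7. The summed level of the 8 U87 markers was 9915 and 6264 CPM in Scr2 replicates 1 and 4 and 10370 to 12910 CPM in the other 7. The shares of genes at a library's lowest value were 2.58% and 5.13% in Scr2 replicates 1 and 4. Their part in the result was not tested.

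MRPL47, the large-subunit protein at the place of bacterial L29, had the smallest p of the 76. It was 5.78, 5.50, 5.93, 5.74 and 6.10 log2 CPM in Myc2 replicates 1 to 5 (5.81 ± 0.23, n = 5) and 6.83, 6.03, 6.24 and 7.19 in Scr2 replicates 1 to 4 (6.57 ± 0.53, n = 4). Scr2 replicate 2 lay below Myc2 replicate 5, so the groups overlap. The difference was -0.76 (SE 0.24, 0.590-fold, limma adjusted p = 0.370).

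MRPS10, a small-subunit protein with a bacterial counterpart, was the single gene of the 76 with Myc2 below Scr2 without overlap, against 1.61% of all genes. Its values were 5.52, 5.46, 5.61, 5.64 and 5.64 in Myc2 and 6.11, 5.67, 5.83 and 6.11 in Scr2. Scr2 replicates 2 and 3, which did not stand apart, also lay above the highest Myc2 value here. For Scr2 replicate 2 the gap was narrow (5.67 against 5.644). The difference was -0.36 (SE 0.15, limma adjusted p = 0.370).

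Further large-subunit genes at an unadjusted p under 0.05 were MRPL55 (-0.72, SE 0.28), MRPS18A (-0.65, SE 0.25), MRPL39 (-0.55, SE 0.23), MRPL28 (-0.55, SE 0.23), MRPL9 (-0.47, SE 0.20) and MRPL48 (-0.72, SE 0.32). Among small-subunit genes, MRPS23 differed by -0.66 (SE 0.27), MRPS11 by -0.61 (SE 0.27) and MRPS14 by -0.51 (SE 0.23). MRPL48, MRPS11 and MRPS14 are named to complete the 11 genes. MRPS11, without overlap and higher in Myc1, was 5.27, 5.60, 5.69, 5.46 and 5.82 in Myc2 and 6.37, 5.46, 5.90 and 6.99 in Scr2. The largest negative difference, that of MRPL30 (-1.94, SE 0.89), turned on Myc2 replicate 2 at -1.50 log2 CPM, where the other Myc2 libraries had 2.53 to 3.71. None of these passed the adjusted threshold (limma adjusted p = 0.370 for each). Without Scr2 replicates 1 and 4, the differences were -0.32 for MRPL47, -0.27 for MRPL55, -0.24 for MRPS18A, -0.18 for MRPS10 and -0.11 for MRPS11 (limma adjusted p = 0.999 for each).

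A few genes did not follow Scr2 replicates 1 and 4. MRPS16 was 6.998, 6.855, 7.194, 6.998 and 7.113 in Myc2 and 7.019, 6.902, 7.170 and 7.179 in Scr2, the smallest SD of the 76 over the 9 libraries (0.12). Its difference was -0.04 (SE 0.14, 95% interval -0.34 to 0.27). MRPS30, a large-subunit protein, was 5.753, 6.130, 5.920, 5.862 and 5.899 in Myc2 and 5.999, 5.989, 5.595 and 5.908 in Scr2, a difference of 0.04 (SE 0.15, 95% interval -0.29 to 0.37). MRPS25, a small-subunit protein without a bacterial counterpart, was 5.75, 5.98, 5.40, 5.71 and 5.88 in Myc2 and 5.66, 5.56, 5.82 and 5.59 in Scr2, a difference of 0.09 (SE 0.16). In MRPS25, Scr2 replicates 1 and 4 lay among the lower libraries. MRPS27, a small-subunit protein without a bacterial counterpart, had an SD of 0.14 and a difference of -0.12 (SE 0.14). The other genes above 0 were MRPS5 (0.02, SE 0.21) and MRPS6 (0.00, SE 0.28). In both, unlike the genes above, Scr2 replicates 1 and 4 lay higher than Scr2 replicates 2 and 3. The values were 6.046 and 6.279 against 5.515 and 5.828 in MRPS5, and 8.118 and 7.836 against 7.241 and 7.177 in MRPS6.

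**Figure D3:**
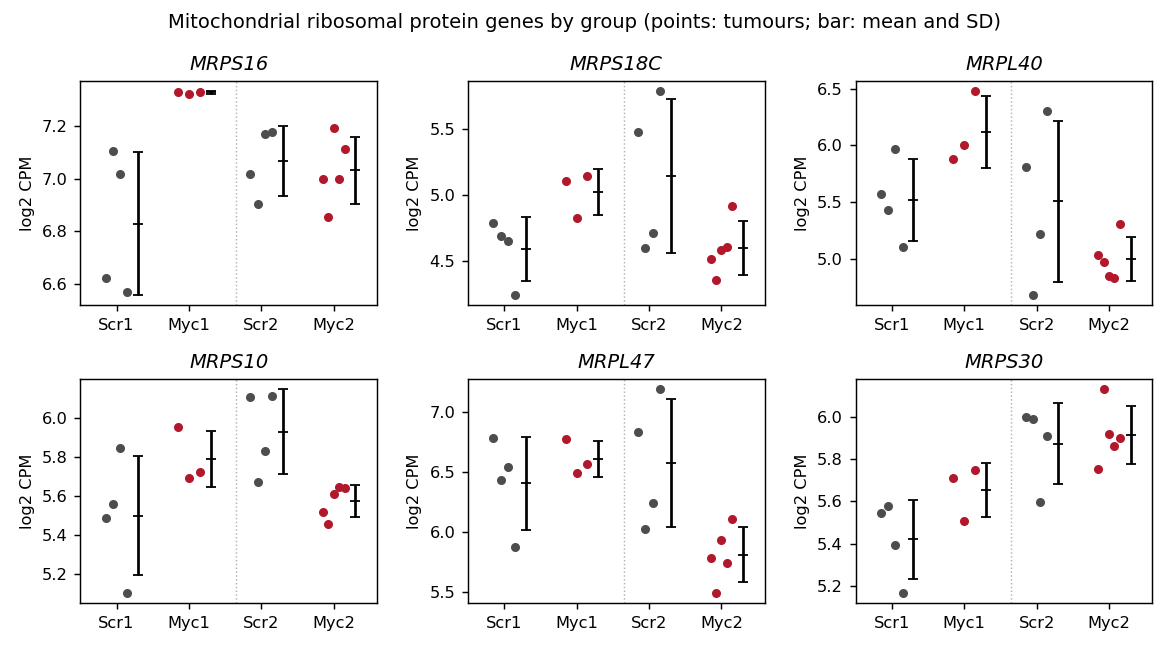
log2 CPM (vertical axis) of 6 mitochondrial ribosomal protein genes by group, with 1 point per tumour and a bar for the mean and SD. The Myc1 points of MRPS16 lie at 7.32 to 7.33 above all Scr1 points, and in MRPS18C and MRPL47 the Scr2 points split into a higher and a lower pair, which they do not in MRPS30. Levels to the left and right of the dotted line come from separately normalized tables.

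Whether the effects of the siRNA experiments differ was tested gene by gene over the libraries of all 4 groups. The difference of effects, the siRNA 1 effect minus the siRNA 2 effect, was above 0 for 71 of the 76 genes, with a median of 0.62, against 0.02 over all 14891 genes tested. limma called 0 of 76 at an adjusted p under 0.05, and 0.0% of all genes. At an unadjusted p under 0.05 there were 16, each above 0, against 4.16% of all genes (619 above 0 of 1301 in both directions). The smallest p were those of MRPS18C (0.98, SE 0.35), MRPL47 (0.97, SE 0.35) and MRPL40 (1.11, SE 0.40), each with a limma adjusted p of 0.532. Without Scr2 replicates 1 and 4, 59 of the 76 lay above 0, the median was 0.19 and 0 had an unadjusted p under 0.05. Over all 15072 genes, 95 were then above 0 at that p. Without Scr1 replicate 4 the median was 0.52, with 6 of the 76 at an unadjusted p under 0.05. Over all 14842 genes, 328 were then above 0 at that p. The count of the 76 was also lower without Myc1 replicate 3 (4), Scr2 replicate 1 (7), Scr2 replicate 4 (6) or Myc2 replicate 4 (10). Over all genes, those above 0 at that p were then 226, 263, 266 and 477, in the same order. The count of the 76 was higher without Scr2 replicate 2 (48), Scr1 replicate 3 (30), Scr2 replicate 3 (26) or Myc2 replicate 5 (25). Over all genes it was then 1534, 777, 937 and 743.

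By direction alone, 63 of the 76 genes were above 0 in the first experiment and below 0 in the second. A further 9 were below 0 in both, 3 were above 0 in both (MRPS5, MRPS25 and MRPS30) and MRPS6 was below 0 in the first and above 0 in the second. The experiments share no library. How many of all genes had opposite directions was not counted. Of 80 cytoplasmic ribosomal protein genes tested, 74 were above 0 in the first experiment and 0 in the second.

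**Figure D4:**
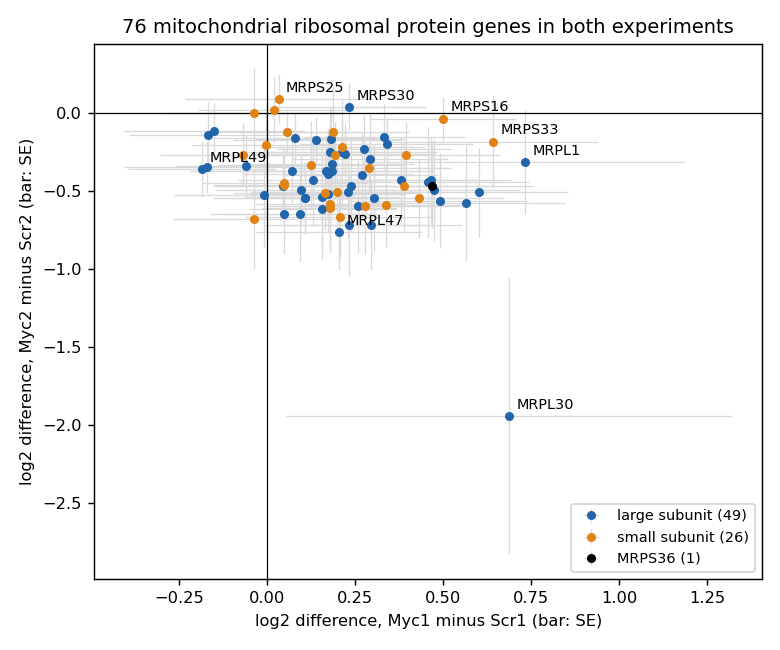
log2 difference of each gene in the first experiment (horizontal axis, Myc1 minus Scr1) and in the second (vertical axis, Myc2 minus Scr2), with bars of 1 SE, coloured by subunit. Most genes (63 of 76) lie in the lower right part of the plot, and MRPL30 stands apart at 0.69 and -1.94.

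The subunits had like medians. In the first experiment 43 of 49 large-subunit genes (median 0.18) and 22 of 26 small-subunit genes (median 0.18) were above 0. In the second, 1 of 49 (MRPS30, median -0.43) and 3 of 26 (MRPS5, MRPS6 and MRPS25, median -0.34) were above 0. Small-subunit genes without a bacterial counterpart had a median of 0.19 in the first experiment (10 of 10 above 0) and -0.24 in the second (1 of 10 above 0). Small-subunit genes with a bacterial counterpart had medians of 0.18 (12 of 16 above 0) and -0.49 (2 of 16). Large-subunit genes with a bacterial counterpart had medians of 0.22 (28 of 30 above 0) and -0.41 (0 of 30), and those without one 0.17 (15 of 19) and -0.50 (1 of 19). MRPS36, which is not a ribosomal subunit, had differences of 0.47 (SE 0.29) and -0.47 (SE 0.27), within the range of the others.

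The 3 relatives of bacterial S18 encode proteins at different places of the ribosome. MRPS18C, at the original place, differed by 0.43 (SE 0.24) in the first experiment and -0.55 (SE 0.25) in the second. MRPS18B, also in the small subunit, differed by 0.05 (SE 0.24) and -0.45 (SE 0.22). MRPS18A, in the large subunit, differed by 0.05 (SE 0.21) and -0.65 (SE 0.25). MRPL12, the stalk protein that has also been reported to bind the mitochondrial RNA polymerase, differed by 0.24 (SE 0.23) and -0.47 (SE 0.30), with Scr2 replicate 4 at 7.05 and Scr2 replicate 1 at 6.51, while the remaining 7 ran from 5.29 to 6.03.

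Transcript length moved with both differences over all genes. The 74 mitochondrial ribosomal protein genes with a length had a median of 1126 bases, against 2563 for all tested genes with a coding transcript. In the first experiment the median difference over all genes was 0.18 under 1000 bases (999 genes), 0.06 from 1000 up to 2000 (3173) and -0.05 at 2000 or more (7758). The mitochondrial ribosomal protein genes had 0.18 (27 genes), 0.19 (41) and 0.19 (6) in the same classes. In the second experiment all genes had -0.40, -0.18 and 0.07, and the mitochondrial ribosomal protein genes -0.49, -0.33 and -0.56. Under 1000 bases the medians were thus close to those of all genes of that length, and in the longer classes they were farther from 0. The shares above 0 under 1000 bases were less close. They were 88.89% against 75.78% of all genes in the first experiment and 3.70% against 17.68% in the second. These classes were set after the values had been seen, and the part of length in the differences was not tested.

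**Figure D5:**
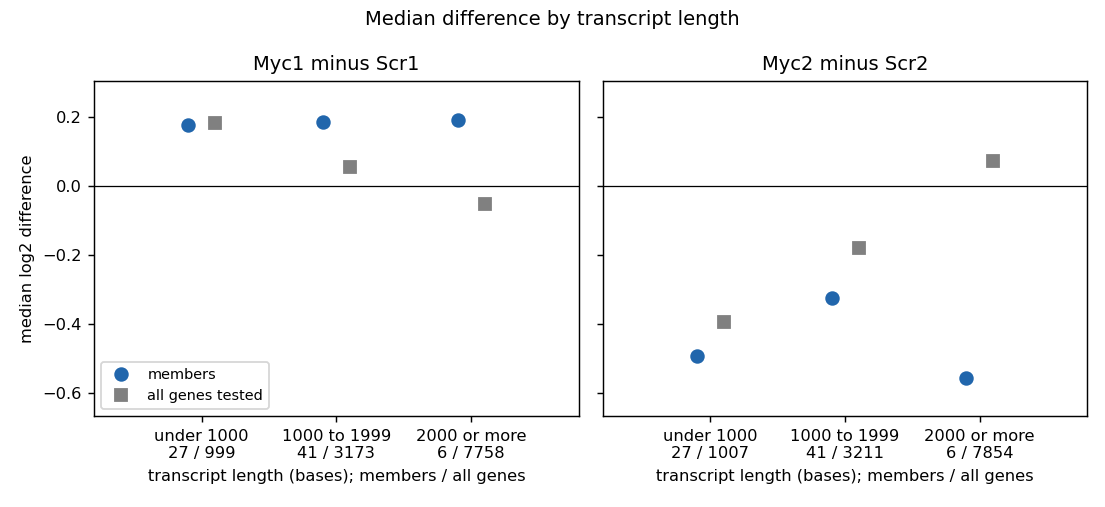
Median log2 difference (vertical axis) of mitochondrial ribosomal protein genes (circles) and of all tested genes (squares) by median coding transcript length (horizontal axis, with the number of each below). In the class under 1000 bases the medians are 0.18 and 0.18 in the first experiment and -0.49 and -0.40 in the second.

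Lists of other genes of mitochondrial translation are given by their counts and medians. The 7 ribosomal subunits with other names were all above 0 in the first experiment (median 0.25). The largest were CHCHD1 (0.61, SE 0.32) and GADD45GIP1 (0.57, SE 0.29). In the second, 1 of 7 was above 0 (median -0.38). That gene was PTCD3, a small-subunit protein of the pentatricopeptide repeat family, with 6.190, 6.386, 5.944, 5.968 and 6.445 in Myc2 and 5.416, 6.004, 6.272 and 5.633 in Scr2 (0.36, SE 0.20). DAP3, a small-subunit protein, differed by 0.02 (SE 0.20) in the first experiment and -0.36 (SE 0.19) in the second. At an unadjusted p under 0.05 none of the 7 differed in either experiment.

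Of 26 genes for the assembly of the ribosome and the modification of its RNA, 14 were above 0 in the first experiment (median 0.04) and 5 in the second (median -0.23). In the first, DHX30 (-0.47, SE 0.24) and GTPBP10 (0.36, SE 0.24) had the smallest p (limma adjusted p = 0.996 for each). In the second, 3 were lower at an unadjusted p under 0.05, with 0 at the adjusted threshold. MPV17L2, which associates with the large subunit, differed by -0.76 (SE 0.28) and the helicase DDX28, which acts in large-subunit assembly, by -0.54 (SE 0.24). Of 16 translation factors and partners, 9 (median 0.06) and 5 (median -0.19) were above 0. Among these, LRPPRC, which stabilizes mitochondrial mRNAs, was higher in Myc2 at 7.01, 6.87, 6.65, 6.80 and 7.02 against 6.35, 6.35, 6.89 and 6.08 in Scr2 (0.45, SE 0.18, limma adjusted p = 0.370). OXA1L, the insertase that receives the new proteins in the inner membrane, differed by -0.37 (SE 0.16). The 20 genes for charging mitochondrial tRNAs were split 10 and 10 in the first experiment (median -0.00), with 4 above 0 in the second (median -0.15). In the first, LARS2 (-0.51, SE 0.24) and PARS2 (-0.58, SE 0.35) had the smallest p and were lower in Myc1 (limma adjusted p = 0.996 for each). In PARS2 the Myc1 values reached 2.618 and the Scr1 values began at 2.619.

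The mRNAs that this ribosome translates had medians above 0 in both experiments. Of the 13 mRNAs of the mitochondrial genome, 11 were above 0 in the first experiment (median 0.03) and 11 in the second (median 0.27). In the first, MT-ND3, a subunit of respiratory complex I, was 9.80, 10.04 and 9.74 in Myc1 and 9.25, 9.29, 9.38 and 8.98 in Scr1, without overlap (0.63, SE 0.19, limma adjusted p = 0.996). In the second, the mean over the 13 was 9.94 in Scr2 replicate 1 and 10.71 in Scr2 replicate 4, below the 10.82 to 11.16 of the other 7 libraries. The libraries with the highest levels of the ribosomal protein mRNAs were thus those with the lowest means of the mitochondrial mRNAs. By summed CPM this held for Scr2 replicate 1 (27430) and not for Scr2 replicate 4 (41200), which lay above Scr2 replicate 2 (39750). MT-ND4L, another complex I subunit, differed by 0.95 (SE 0.42, limma adjusted p = 0.370).

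Among genes that act upstream, 7 of 9 for replication and transcription of the mitochondrial genome were above 0 in the first experiment (median 0.18) and 5 of 9 in the second (median 0.09). In the first, POLG had the smallest p (-0.50, SE 0.24, limma adjusted p = 0.996). Its Myc1 values ran from 4.71 to 5.23 and its Scr1 values from 5.26 to 5.79. SSBP1 followed with a difference of 0.32 (SE 0.23). TFB2M, which opens the mitochondrial promoters for the polymerase, differed by 0.00 (SE 0.25) and -0.56 (SE 0.26). Of 9 regulators of mitochondrial biogenesis, MYC among them, 3 and 5 were above 0. PPARGC1A, a coactivator of that programme, was 2.12, 1.45 and 1.87 in Myc1 and -0.04, 1.78, 0.89 and -0.45 in Scr1 (1.26, SE 0.53, limma adjusted p = 0.996). NRF1, a transcription factor of many of these genes, was 4.10, 3.95, 4.72, 4.52 and 4.16 in Myc2 and 5.36, 5.16, 4.49 and 5.21 in Scr2 (-0.77, SE 0.23, limma adjusted p = 0.370). For NRF1, Scr2 replicate 2 lay close to replicates 1 and 4, and replicate 3 lay within Myc2. The cytoplasmic ribosomal protein genes, which serve the other ribosome of the cell, were above 0 for 74 of 80 tested in the first experiment (median 0.22) and 0 of 80 in the second (median -0.40).

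Markers of host cells were present at different levels. Rows were found for 4 of 8 neuron markers, 7 of 8 astrocyte markers, 4 of 8 oligodendrocyte markers, 3 of 8 microglia and macrophage markers and 0 of 5 erythroid markers in each table, and for 4 and 5 of 8 endothelial markers; the others were not analysed here. The summed neuron markers were at 13.1 to 21.4 CPM in the first experiment and 13.9 to 26.8 CPM in the second, and the endothelial markers at 2.1 to 12.9 CPM over both. Oligodendrocyte markers summed to 178 to 224 CPM in the first experiment and 143 to 212 CPM in the second. In the first experiment, 1 measured marker each of the neuron (RBFOX3), oligodendrocyte (MBP), microglia and macrophage (ITGAM) and endothelial (ERG) lists was under 1 CPM in every library, and in the second ERG alone was. CNP, an oligodendrocyte marker, was at 7.06 to 7.61 log2 CPM in the first experiment. Astrocyte markers, several of which glioma cells also express, summed to 331 to 410 CPM in Myc1, 148 to 410 in Scr1, 212 to 845 in Myc2 and 179 to 495 in Scr2. Microglia and macrophage markers summed to 332 to 403 CPM in Myc1, 247 to 347 in Scr1, 178 to 277 in Myc2 and 163 to 269 in Scr2. The measured genes of this list were not the same in both experiments. ITGAM had a row in the first only and PTPRC in the second only, so these sums compare within an experiment. The tables hold human genes, so mouse cells would appear in them only through reads that match a human gene. The part of host RNA in the results was not tested.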

How the data were processed

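RNA from 16 xenografts was sequenced on an Illumina NextSeq instrument after samples had reached an RNA integrity number of 7.2 or more, per the labels' protocols. The submitters' processing notes name bcl2fastq 2.20.0, STAR 2.6.0b, Picard, hg19 and mm10. The handling of mouse reads, the counting tool and the annotation are not stated there. For each experiment the authors deposited a table of log2 values. Taken back from log2, these sum to 998367 to 998392 and 995054 to 995076 per library and have nearly the same distribution in every library, so they are log2 CPM, quantile-normalized within a table. Such values hide a shift of most genes together, and levels were compared within a table. Counts are not given, so library sizes were estimated from steps 2 to 20 of the lowest values (off by at most 4.71% and 2.88% on simulated data of 17318 and 18168 genes).

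All genes of a comparison were fitted with limma 3.58.1 under R 4.3.3 (two-sided, empirical Bayes, trend and robust settings, Benjamini-Hochberg adjustment, threshold 0.05) on the deposited values, with no covariate. A gene needed 1 CPM or more in at least 3 libraries in siRNA 1, in 4 in siRNA 2 and in 3 for the fit over all 4 groups, which compared the effects. On simulated data, 98.5% of 200 genes changed 4-fold were recovered over 13785 genes (siRNA 1) and 99.5% over 14078 genes (siRNA 2), with 2.96% and 3.40% of calls false. The differences of the mitochondrial ribosomal protein genes were all smaller than 4-fold. The simulated shares therefore do not tell how often changes of their size would be found. Counts and medians over the gene lists are descriptions. The genes, the lists (written from memory) and the tests were chosen with earlier results of these data known. Named genes are the 8 with the smallest p in each direction of each comparison, those whose groups do not overlap, the 3 highest, lowest, most and least variable of each table, MRPL12, MRPS18A, MRPS18B, MRPS18C, MRPS30 and MRPS36, the 2 with the smallest p of each other list, and MYC. A gene named for one experiment may be given in the other too. The levels per kilobase and the length classes (bounds 1000 and 2000 bases) were added after the values were seen. The alternatives were other pseudocounts (0.1 and 1), no filter, limma without trend and robust settings, summed rows of a repeated symbol, libraries centred on genes above 32 CPM, and leaving out libraries.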

Additional observations from a re-analysis of the deposited data

Results flagged for a closer look

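Of 86 combinations of a gene or mean with a group of at least 4 libraries that were examined for a library far from the others, 4 were picked out by the gap to the nearest value divided by the range of the group. Chance alone picks about 1 in 20.

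MRPL30 in Myc2 replicate 2 was at -1.503 log2 CPM, where the other 4 Myc2 libraries were at 2.526 to 3.711 (gap over range 0.773). The mean over the 76 genes in Myc2 replicate 5 was 5.886, where the others were at 5.504 to 5.61 (0.722). MRPL39 in the same library was at 4.953, where the others were at 4.655 to 4.737 (0.724). MRPL44 in Scr1 replicate 3, the library with the smallest estimated size, was at 5.304, where the others were at 4.986 to 5.023 (0.884).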

How the results depend on the processing

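No paired analysis was possible because the labels give mouse numbers and no replicate numbers shared between groups. With other pseudocounts, no filter, summed rows or centred libraries, the gene calls and the counts and medians of the 76 genes stayed on their side or within 1.5 times, and 0 of 336 differences of named genes turned their sign, limma without trend and robust settings included. That last setting gave 0 of the 76 at an unadjusted p under 0.05 in siRNA 1 (2 as reported) and 6 in siRNA 2 (11 as reported). Over all genes, 267 were then higher at that p in siRNA 1 and 854 lower in siRNA 2. With 1 library left out in turn, gene calls over all genes ran from 0 to 2 in siRNA 1 and 0 to 9 in siRNA 2, and were 0 throughout for the difference of effects. The count of the 76 above 0 ran from 56 to 71 and from 1 to 11, the median from 0.10 to 0.27 and from -0.62 to -0.19, and the count at an unadjusted p under 0.05 from 0 to 9 and from 1 to 46. Over all genes, those higher at that p ran from 100 to 472 in siRNA 1, and those lower from 284 to 2023 in siRNA 2. Without Scr2 replicates 1 and 4, siRNA 2 had 2 gene calls over all genes, 41 of the 76 above 0 and 0 of the 76 at an unadjusted p under 0.05. Over all genes, 215 were lower at that p and 294 higher. The differences of MRPL1 (0.0519), MRPL12 (0.0910), MRPL21 (0.0850), MRPL23 (0.25), MRPL54 (0.19), MRPS17 (0.00746) and MRPS36 (0.0525) were then above 0. The cause of these moves was not tested.

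With 1 library left out, 8 of 29 named genes changed sign in siRNA 1: MRPL10 (-0.33 to 0.0091), MRPL37 (-0.15 to 0.00010), MRPL9 (-0.0090 to 0.0876), MRPS12 (-0.16 to 0.12), MRPS18A (-0.0551 to 0.18), MRPS18B (-0.10 to 0.13), MRPS6 (-0.26 to 0.22) and MRPS9 (-0.17 to 0.0393). In siRNA 2, 4 of 27 did so: MRPS16 (-0.0909 to 0.0084), MRPS30 (-0.0530 to 0.0817), MRPS5 (-0.11 to 0.14) and MRPS6 (-0.14 to 0.18). Estimated depth was lowest in Scr1 replicate 3 (3.35 M reads); its part in the values was not tested.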
